A study of Mus musculus with 6 samples.

Results

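MicroRNA gene rows were followed on 6 Affymetrix arrays of mouse embryonic stem (ES) cells. A row is 1 probe set of the deposited value table. A row was a member when its annotation held a single gene symbol of the form Mirlet7 or Mir followed by a digit, so that host genes such as Mir17hg and rows shared by several symbols stayed out. This gave 298 of the 35556 rows, for 296 genes, of which 9 are named let-7; Mir713 has 3 rows and every other gene has 1. The cells were of the A3-1 line, grown in medium with fetal bovine serum and LIF, the cytokine that holds mouse ES cells undifferentiated. Of the 3 groups, 1 was left untreated, 1 received a short interfering RNA (siRNA) directed at GFP, which served as the control siRNA (siGFP), and 1 received an siRNA directed at Lin28a (siLin28a). Both siRNA groups were kept for 48 h, each received a single siRNA sequence, and each group holds 2 arrays, numbered replicate 1 and 2. Whether a group's 2 arrays stand for separate cultures is not given in the labels, so every p-value below rests on a spread between arrays that could be purely technical.

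A microRNA is cut from a long primary transcript in steps. Drosha with Dgcr8 frees a hairpin precursor in the nucleus, Xpo5 exports it, and Dicer1 cuts out the short mature strand, whose seed (bases 2 to 8) pairs with target messages. ES cells transcribe let-7 genes but hold little mature let-7, because LIN28 binds the precursor, with its zinc knuckles on the bases GGAG of the loop, and recruits the uridylyl transferases Tut4 and Tut7, after which the nuclease Dis3l2 degrades the tailed hairpin. The block acts on precursors, while the rows described here report primary or precursor transcripts. They give no level of any mature microRNA.

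The let-7 mature strands are shown because the seed defines the family; capitals mark the seed, bases 2 to 8. Sequences and positions are those of RefSeq for GRCm38.p6, which held a hairpin for 258 of the 296 genes and at least 1 mature strand for 270. All the let-7 and miR-98 strands below share the seed GAGGUAG, and the let-7f strand is made by both Mirlet7f-1 and Mirlet7f-2. RefSeq lists a strand with this seed for 9 member genes. For Mirlet7a-2, also of the family, it lists only the strand let-7a-2-3p of the other arm, so the count leaves that gene out.
let-7a-5p: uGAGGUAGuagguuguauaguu
let-7c-5p: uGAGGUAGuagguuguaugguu
let-7d-5p: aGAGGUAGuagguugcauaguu
let-7e-5p: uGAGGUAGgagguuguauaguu
let-7f-5p: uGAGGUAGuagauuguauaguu
let-7g-5p: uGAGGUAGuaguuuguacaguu
let-7i-5p: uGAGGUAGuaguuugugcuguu
miR-98-5p: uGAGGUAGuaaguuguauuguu

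The hairpins of 5 let-7 family genes are shown because the loop holds the bases LIN28 is known to bind; capitals mark GGAG wherever it occurs. They lie at chr13:48538179-48538272 on the minus strand (Mirlet7a-1), chr13:48536012-48536114 on the minus strand (Mirlet7d), chr9:106178840-106178927 on the plus strand (Mirlet7g), chr10:122985640-122985724 on the minus strand (Mirlet7i) and chrX:151913214-151913321 on the plus strand (Mir98).
Mirlet7a-1: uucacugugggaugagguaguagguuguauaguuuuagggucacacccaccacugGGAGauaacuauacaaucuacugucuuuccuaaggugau
Mirlet7d: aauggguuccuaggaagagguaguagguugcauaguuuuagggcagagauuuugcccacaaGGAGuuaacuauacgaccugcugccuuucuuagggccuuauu
Mirlet7g: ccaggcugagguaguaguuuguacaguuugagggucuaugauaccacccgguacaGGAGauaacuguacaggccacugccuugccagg
Mirlet7i: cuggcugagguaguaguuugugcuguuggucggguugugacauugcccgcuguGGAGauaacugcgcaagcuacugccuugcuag
Mir98: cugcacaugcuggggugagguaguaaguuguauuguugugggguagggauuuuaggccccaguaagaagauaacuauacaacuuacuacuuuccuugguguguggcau
GGAG was found in 9 of the 10 family hairpins, and Mir98 is the one without it. Among the 9 let-7 family hairpins with both arms annotated, 8 had GGAG between the arms (88.9%). The same held for 52 of 644 hairpins with both arms in the whole RefSeq table (8.07%) and for 13 of 208 member hairpins outside the family (6.25%). The search was for these 4 letters on the transcribed strand, and a match is a description of the sequence.

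The other strands to which the values below refer are the miR-302 cluster strands and the miR-17 and miR-20a strands with their near-identical seeds and the strands of Mir7-1, Mir186 and Mir377, which were among the rows with the smallest p. The seed is in capitals. The miR-302b and miR-302d strands carry AAGUGCU, and the miR-17 and miR-20a strands carry AAAGUGC, the same letters offset by a base.
miR-302b-3p: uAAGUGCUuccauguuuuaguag
miR-302d-3p: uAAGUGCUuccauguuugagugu
miR-367-3p: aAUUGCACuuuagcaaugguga
miR-17-5p: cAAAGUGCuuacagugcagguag
miR-20a-5p: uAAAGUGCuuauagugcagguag
miR-363-3p: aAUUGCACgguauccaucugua
miR-7a-5p: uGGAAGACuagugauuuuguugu
miR-186-5p: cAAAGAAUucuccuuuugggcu
miR-377-3p: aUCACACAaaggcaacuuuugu
The strands of the Lin28a siRNA are given in the labels and are shown because bases 2 to 8 of an siRNA strand can act as a seed. Neither strand shares bases 2 to 8 with any of the 1738 mature mouse entries of the table.
siLin28a strand 1: gcagaagcgaagauccaaa
siLin28a strand 2: uuuggaucuucgcuucugc

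The values are log2 expression from RMA, in steps of 0.1, and fold changes are differences of group means on that scale. The row of the siRNA target was lower on both siLin28a arrays: Lin28a (row 10517159) read 9.1 and 9.4 in untreated cells, 9.1 and 9.4 with siGFP, and 7.4 and 7.4 with siLin28a. That is a log2 fold change of -1.85 ± 0.16 (SE) from siGFP, or 3.61-fold lower, with arrays that do not overlap, yet its adjusted p by limma was 0.512. With 2 arrays per group and 3 residual degrees of freedom no named row of 23410 passed an adjusted p of 0.05, and an exact permutation test of 2 arrays against 2 cannot go below 0.333. Lin28b, the paralogue, read 6.6 and 6.3 untreated, 6.1 and 6.5 with siGFP, and 6.1 and 6.6 with siLin28a, so its groups overlap. All 10 ES cell markers looked up, Pou5f1, Sox2 and Nanog among them, had a row mean of 8.27 or more. None of the rows for 22 marker genes of feeder fibroblasts, primitive endoderm, trophoblast and neural cells reached a mean of 8, the highest being 7.08.

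MicroRNA rows were dim. Their mean over the 6 arrays had a median of 4.12 and ran from 1.1 to 8.58, against a median of 5.65 for all named rows. Rows of olfactory and vomeronasal receptors, sensory genes that ES cells are not known to express, had a median of 2.67 over 1210 rows and a 95th percentile of 4.62. Of the 298 microRNA rows, 114 lay above that percentile (38.3%), and 46 had a mean of 6 or more (15.4%, against 45.0% of named rows). The brightest 5 were Mir6516, Mir341, Mir320, Mir346 and Mir328. Mir341, a gene of the Dlk1-Dio3 imprinted region, read 8.3 and 8.3 untreated, 8.4 and 8.4 with siGFP, and 8.4 and 8.3 with siLin28a. Mir320 read 8.1 and 8.0, 8.0 and 8.1, and 8.3 and 8.0 in the same order. The median SD within groups was 0.212 in microRNA rows, 0.208 in the receptor rows and 0.153 over all named rows; the receptor rows are dim as well. Brightness depends on the probes as well as the transcript, so it ranks no microRNA against another.

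**Figure D1:**
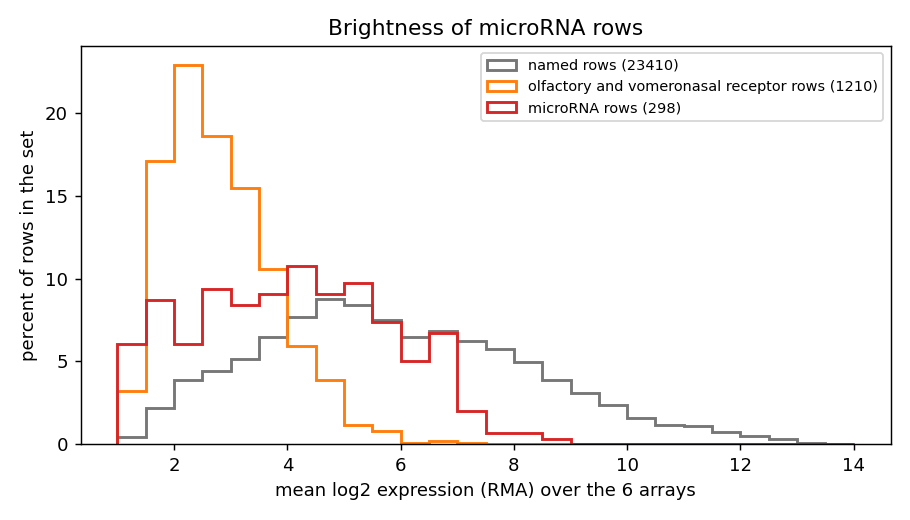
Share of rows (percent, vertical axis) by mean log2 expression over the 6 arrays (horizontal axis) for 298 microRNA rows, 1210 olfactory and vomeronasal receptor rows and 23410 named rows. The microRNA rows, with a median of 4.12, lie between the receptor rows (2.67) and the named rows (5.65).

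Cells with siLin28a were compared with siGFP cells, which asks what accompanies a lowered Lin28a message when siRNA delivery is common to both. No microRNA row passed an adjusted p of 0.05 by limma, where 0% of all named rows did. At an unadjusted p under 0.05 there were 7 rows, 2 higher and 5 lower (2.35%, against 4.05% of named rows). The arrays of the 2 groups did not overlap for 50 rows, 27 higher and 23 lower (16.8%, against 20.8%). Of the 298 rows, 140 lay above 0, 125 below and 33 at 0, with a median of 0, which is also the median of all named rows. The 95% interval of the fold change lay within -1 and 1 for 278 of the 298 rows, and at the median it reached 0.445 to either side, so differences of less than that were not detectable in a typical row. In bulk RNA, fewer cells of a type and less RNA per cell cannot be told apart. The mean of the 10 ES cell markers was 10.29 to 10.38 on the siLin28a arrays, 10.6 to 10.81 with siGFP and 10.66 to 10.72 untreated, and the part of this in the microRNA values was not tested.

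**Figure D2:**
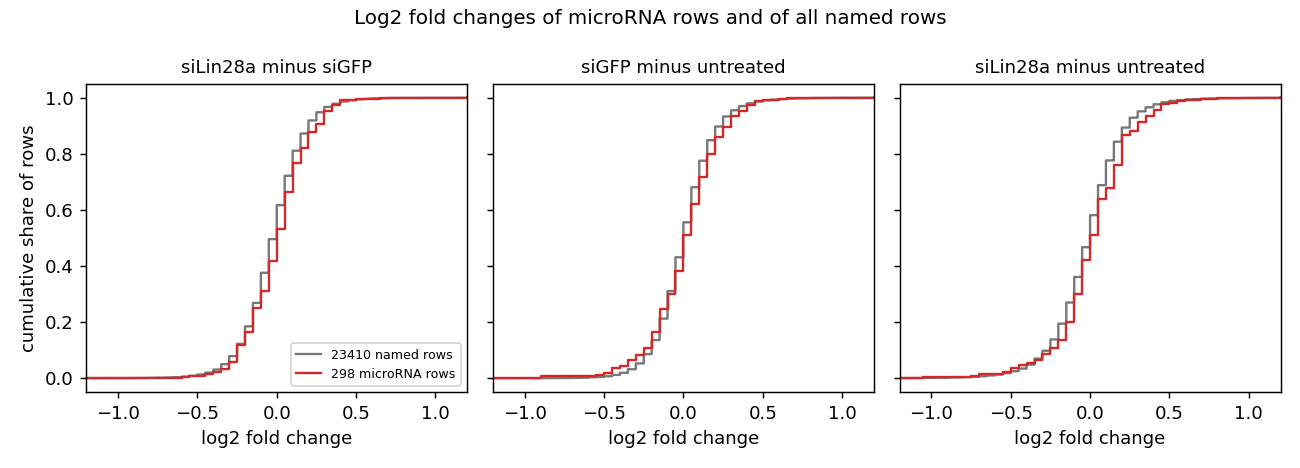
Cumulative share of rows (vertical axis) at or below each log2 fold change (horizontal axis) for 298 microRNA rows and 23410 named rows in the 3 comparisons. The curves cross 0.5 at a median of 0 in each panel and run close together; 1 microRNA row is past 2-fold, Mir186 in siLin28a minus untreated.

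The let-7 rows differed little with Lin28a lowered. All 10 rows of the family, Mir98 included, had a 95% interval that holds 0 and lies within -1 and 1, so a 2-fold difference of the row in either direction is outside the interval of each. Their log2 fold changes ran from -0.25 to 0.10 with a median of -0.175 (8 lower, 2 higher), against a median of 0 over named rows, 49.6% of which lay below 0. The smallest limma p was 0.0925 and every adjusted p was 0.953 or more. The median was between -0.175 and -0.075 when each array was left out in turn, and the array medians over the 10 rows were 4.25 and 4.4 untreated, 4.45 and 4.3 with siGFP, and 4.15 and 4.35 with siLin28a, which overlap. As deviations from the row means, which remove the brightness of each row, the medians were -0.03 and 0.04 untreated, 0.11 and 0.06 with siGFP, and -0.07 and -0.04 with siLin28a. On that measure both siLin28a arrays lie below the other 4 and the groups do not overlap. The margin is far less than 1 step of the scale: siLin28a replicate 2 stood at -0.042 and untreated replicate 1 at -0.033.

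The let-7 genes of chromosome 13 lie in 1 cluster. Mirlet7a-1 read 4.3 and 4.1 untreated, 4.4 and 4.3 with siGFP, and 4.2 and 4.2 with siLin28a, a fold change of -0.15 ± 0.13 (SE). Mirlet7f-1 read 4.7 and 5.1, 4.8 and 4.3, and 4.2 and 4.5 (-0.20 ± 0.23 from siGFP). Mirlet7d read 5.0 and 4.7, 4.5 and 4.8, and 4.3 and 4.5 (-0.25 ± 0.17). In this cluster only the Mirlet7a-1 arrays of siLin28a and siGFP do not overlap. For Mirlet7d the untreated arrays lie above both siLin28a arrays, a fold change of -0.45 ± 0.17 from untreated cells (limma p 0.0385, adjusted p 0.750). Mirlet7f-1 stood at -0.55 ± 0.23 in that comparison, with no overlap (limma p 0.0514, adjusted p 0.776). Across the 10 family rows, the median of siLin28a from untreated cells was -0.025, with 4 higher, 5 lower and 1 at 0. Without overlap 1 row lay higher, Mirlet7i, and 3 lower, against 11.1% and 12.6% of named rows. For siGFP from untreated cells the family median was 0.125, with 7 higher, 2 lower and 1 at 0, where 44.4% of named rows lay above 0.

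Outside that cluster the brightest let-7 rows were Mirlet7i and Mirlet7e. Mirlet7i read 5.6 and 5.6 untreated, 5.8 and 5.7 with siGFP, and 5.9 and 5.7 with siLin28a (0.05 ± 0.13 from siGFP). Mirlet7e, inside the Spaca6 gene, read 5.5 and 5.4, 5.4 and 5.5, and 5.4 and 5.4 (-0.05 ± 0.12), the smallest SE of the family. Mirlet7g, inside Wdr82, read 4.2 and 4.2, 4.4 and 4.2, and 4.1 and 4.0 (-0.25 ± 0.13). Here both siLin28a arrays lie below both siGFP arrays by a margin of a single step of the scale, while Wdr82 itself read 10.3 and 10.2, 10.3 and 10.2, and 10.2 and 10.2. Mirlet7a-2 read 2.7 and 2.6, 3.1 and 2.9, and 3.1 and 2.4 (-0.25 ± 0.24). Mirlet7f-2 read 2.5 and 2.7, 2.6 and 2.8, and 2.3 and 2.6 (-0.25 ± 0.16). Mirlet7c-1 read 2.1 and 2.7, 2.5 and 2.6, and 2.5 and 2.8 (0.10 ± 0.22). These 3 rows, together with Mirlet7a-1, Mirlet7f-1, Mirlet7g and Mir98, had means under the 95th percentile of the receptor rows. Mir98, which shares the Huwe1 gene with Mirlet7f-2, read 3.9 and 4.6, 4.5 and 4.4, and 4.0 and 4.8 (-0.05 ± 0.32), and its 2 arrays within a group differed by as much as 0.8.

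**Figure D3:**
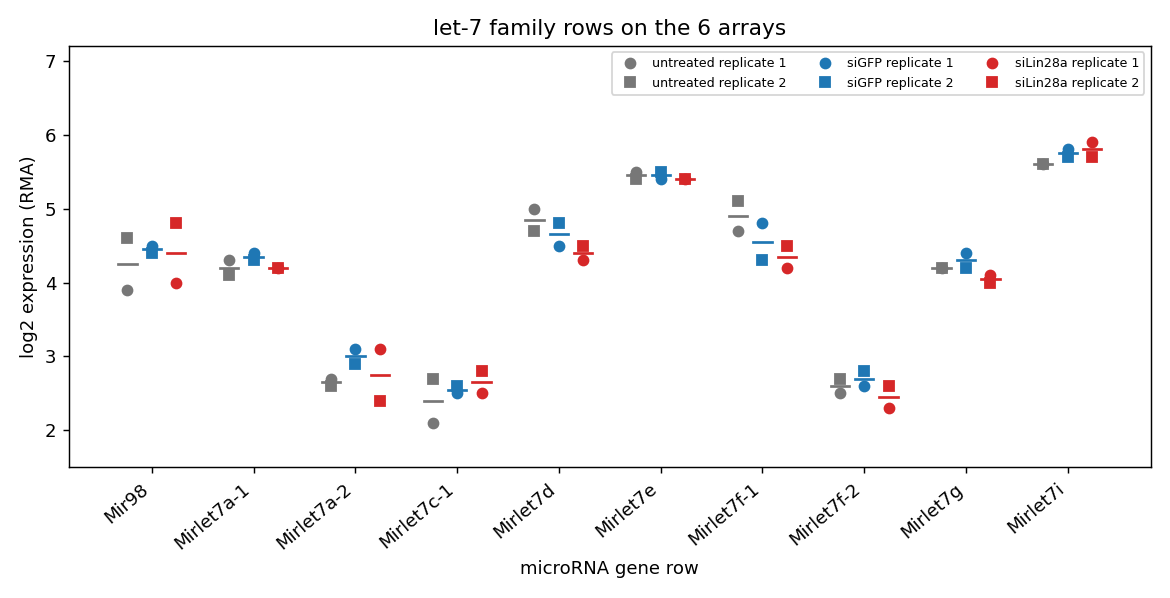
Log2 expression (RMA, vertical axis) of the 10 let-7 family rows on each array; circles are replicate 1, squares replicate 2, and short lines the group means. In 8 of the 10 rows the siLin28a and siGFP points overlap or touch in range, and the group means differ by 0.25 or less.

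Rows with and without the loop motif had like medians when let-7 rows were pooled with the others. The pooled set mixes let-7 rows with 13 rows from outside the family. The 10 let-7 family rows alone had a median of -0.175 from siGFP (8 lower, 2 higher). The 21 member rows whose hairpin has GGAG between its arms, 8 of them let-7 family genes, had a median fold change of 0.05 from siGFP (11 higher, 9 lower, 1 at 0), and the 196 rows with both arms but no GGAG between them had a median of 0 (95 higher, 80 lower, 21 at 0). Mir107, Mir143 and Mir200c, whose precursors have been reported with LIN28 elsewhere, had fold changes of 0.05, 0 and 0.25. Mir200c, of the epithelial miR-200 family, read 3.7 and 4.5 untreated, 4.2 and 4.1 with siGFP, and 4.3 and 4.5 with siLin28a. The 6 rows of the genes that lie beside let-7 genes, Mir99a, Mir99b, Mir100, Mir125a, Mir125b-1 and Mir125b-2, had a median of 0.025 and ran from -0.05 to 0.25, and the arrays of siLin28a and siGFP overlap in each. From untreated cells, 1 of these rows lay higher and 2 lower without overlap with siGFP, against 9.22% and 8.46% of named rows. With siLin28a 1 lay higher without overlap, against 11.1% of named rows.

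The miR-302 and miR-367 rows, of a cluster that is transcribed in pluripotent cells, lay above siGFP in 5 of 5 rows with a median of 0.25. Above 0 lay 38.3% of named rows and 140 of the 298 microRNA rows. The 5 rows come from 1 cluster and are not independent of each other. All were among the dimmest rows, with means from 1.45 to 2.47, below the median of the receptor rows. The Mir290 to Mir295 cluster had no member row. Mir302d (row 10495929), at chr3:127545624-127545689 on the plus strand, read 2.1 and 2.2 untreated, 1.8 and 2.0 with siGFP, and 2.8 and 2.3 with siLin28a. Its fold change of 0.65 ± 0.19 from siGFP was the highest of all microRNA rows (limma p 0.0134, adjusted p 0.953), and both siLin28a arrays lie above all 4 others. Mir302b read 1.5 and 1.7, 1.7 and 1.9, and 2.0 and 2.1 (0.25 ± 0.14), again without overlap. Mir302c read 2.1 and 2.1, 2.8 and 2.2, and 3.2 and 2.4 (0.30 ± 0.30). Mir302a read 1.6 and 2.1, 2.1 and 1.8, and 1.9 and 2.2 (0.10 ± 0.22). Mir367, whose strand has the seed AUUGCAC in common with miR-25 and miR-363, read 1.2 and 1.4, 1.3 and 1.7, and 1.5 and 1.6 (0.05 ± 0.17). The last 3 overlap between siLin28a and siGFP. From untreated cells the 5 rows had a median of 0.40, and 4 of them did not overlap, against 11.1% of named rows that lay higher without overlap. Untreated replicate 1 was the lowest array for this cluster, with a median deviation from the row means of -0.32, while the other 5 arrays lay between -0.15 and 0.18. The same array deviated by a median of -0.10 over all 298 microRNA rows and -0.03 over named rows, so its low reading was not confined to the cluster. Without untreated replicate 1 the cluster median over untreated was 0.35, and without siLin28a replicate 1 it was 0.30.

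**Figure D4:**
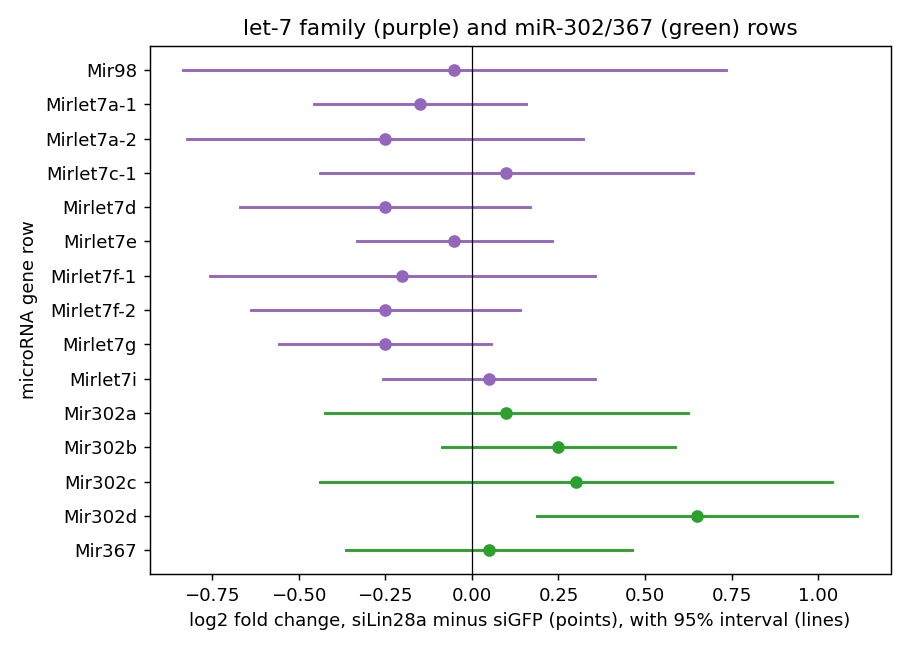
Log2 fold change of siLin28a minus siGFP (points) with its 95% interval from limma (lines) for 10 let-7 family rows (purple) and 5 miR-302 and miR-367 rows (green). Every let-7 interval crosses 0; of the green ones only that of Mir302d does not, and no let-7 interval reaches -1 or 1.

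The miR-17 to miR-92 cluster, abundant in dividing cells, and its copies on chromosome X and inside Mcm7 had 13 rows, with a median of 0 from siGFP and a range of -0.25 to 0.15. No row of the 13 separated siLin28a from siGFP. Mir17 read 5.3 and 5.4 untreated, 5.3 and 5.4 with siGFP, and 5.4 and 5.6 with siLin28a (0.15 ± 0.13). Mir20a read 6.6 and 6.6, 6.5 and 6.7, and 6.4 and 6.7 (-0.05 ± 0.15). Their host transcript, Mir17hg, read 6.0 and 5.7, 5.4 and 5.6, and 5.5 and 5.7. Mir18, Mir19a and Mir19b-1 of the same transcript had fold changes of -0.10, 0 and 0.

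Of the copies, Mir363 stood apart between treated and untreated cells. Mir25, Mir93 and Mir106b, inside the replication gene Mcm7, had fold changes of -0.05, -0.25 and 0 from siGFP. Mcm7 read 10.5 and 10.6, 10.7 and 10.6, and 10.7 and 10.6. Of the copies on chromosome X, Mir106a, Mir20b, Mir19b-2 and Mir92-2 had fold changes of 0.15, 0.05, 0.10 and 0.10. Mir363 read 5.4 and 6.2 untreated, 4.6 and 5.2 with siGFP, and 4.8 and 5.3 with siLin28a, so that both siRNA groups lie under the untreated arrays. Its fold change was -0.90 ± 0.34 in siGFP from untreated cells (limma p 0.0354, adjusted p 0.961) and 0.15 ± 0.34 in siLin28a from siGFP.

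Of the rows with the smallest p among those without overlap, Mir7-1 was the brightest of the lower ones. Mir7-1 (row 10409709), at chr13:58392779-58392886 on the minus strand inside Hnrnpk, read 6.7 and 6.7 untreated, 7.0 and 6.7 with siGFP, and 6.4 and 6.2 with siLin28a. Both siLin28a arrays lie below the other 4, a fold change of -0.55 ± 0.15 from siGFP (limma p 0.00971, adjusted p 0.953). Hnrnpk, which encodes an RNA-binding protein, read 12.1 and 12.1, 11.9 and 12.2, and 11.9 and 12 (-0.10 ± 0.14). Mir7-2, whose gene makes the same mature strand from another place, was looked at after the values of Mir7-1 were seen and read 5.2 and 5.1, 5.0 and 4.9, and 5.1 and 5.0.

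The other lower rows were dimmer. Mir350 read 2.7 and 2.9 untreated, 2.8 and 3.0 with siGFP, and 2.4 and 2.5 with siLin28a (-0.45 ± 0.14), with its host Cep170 at -0.15. Mir182, of a cluster known from sensory organs, read 3.1 and 3.3, 3.5 and 3.3, and 2.8 and 3.1 (-0.45 ± 0.16). Mir96, of the same cluster and strand, stood on the other side, with 3.3 and 3.2, 3.1 and 3.0, and 3.3 and 3.6 (0.40 ± 0.14), so these 2 rows lay on opposite sides of 0. Mir183, the other gene of the cluster, added after its values were seen, lay on the side of Mir182 without overlap, with 1.7 and 2.5, 2.4 and 2.3, and 2.0 and 2.2 (-0.25 ± 0.26). Mir30c-1 read 3.9 and 4.0, 4.0 and 4.3, and 3.8 and 3.8 (-0.35 ± 0.14), and its host Nfyc, a subunit of the NF-Y factor, stood at 0.05. Mir133a-2, a muscle microRNA, is described with the siGFP comparison below, since its siGFP arrays were the high ones.

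Among the higher rows, Mir29a read 1.3 and 1.7 untreated, 1.5 and 1.8 with siGFP, and 2.1 and 2.0 with siLin28a (0.40 ± 0.18), a very dim row. Mir670 read 5.2 and 5.4, 4.9 and 5.0, and 5.2 and 5.3 (0.30 ± 0.13), where the siGFP arrays are the low ones. Mir218-1 also had low siGFP arrays, with 4.3 and 4.1, 3.6 and 3.9, and 4.5 and 4.0 (0.50 ± 0.21). Slit2, the guidance-cue gene that holds Mir218-1, had the opposite order, with 5.4 and 5.4, 5.8 and 6.0, and 5.1 and 5.0 (-0.85 ± 0.13). Mir218-2, looked at after those values were seen, stood at 0.

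Seeds shared by 2 or more member genes numbered 67 of 390. The 6 rows of the miR-181 family, seed ACAUUCA, all lay below siGFP, with a median of -0.15, where 49.6% of named rows lay below 0. This family was singled out after its values were seen, and all 6 intervals hold 0. The 6 rows with the seed AAAGUGC of miR-17 had a median of 0.025. The 4 rows of the miR-200 family had a median of 0.15 and lay above siGFP in 4 of 4, where 38.3% of named rows and 140 of the 298 microRNA rows lay above 0. Genes of a family can lie in 1 cluster, so the rows in these counts are not all independent of each other. The 5 rows of the miR-34 and miR-449 families, known as p53 targets or ciliated-cell microRNAs, had a median of 0.05. The 5 rows of the miR-297, miR-466 and miR-669 families, many copies of which lie within Sfmbt2, had a median of -0.25, with 4 lower and 1 higher. Their means ran from 1.1 to 4.72 with a median of 1.88, so most were very dim. Mir297b, named here for its size, had the lowest fold change of all microRNA rows from siGFP (-0.60 ± 0.27, limma p 0.0658). It read 4.3 and 5.0 untreated, 5.1 and 5.0 with siGFP, and 4.2 and 4.7 with siLin28a. Sfmbt2 read 6.5 and 6.4 untreated, 7.2 and 7.1 with siGFP, and 6.8 and 6.6 with siLin28a. Its fold changes were -0.45 ± 0.13 from siGFP and 0.25 ± 0.13 from untreated cells, so its 3 groups do not overlap and siGFP is the highest. The 19 rows of microRNAs of muscle, neurons, blood and other differentiated tissues had a median of 0.05, with 10 higher, 6 lower and 3 at 0.

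Cells with siGFP were compared with untreated cells to show what accompanies the control siRNA. No microRNA row passed an adjusted p of 0.05 by limma (0% of named rows), and 12 lay under an unadjusted 0.05, of which 5 were higher and 7 lower (4.03%, against 3.52% of named rows). The arrays did not overlap for 43 rows, 21 higher and 22 lower (14.4%, against 17.7%), and the median was 0. The siGFP arrays serve in this comparison and in the one above, so a row with unusual siGFP arrays appears in both with opposite sign.

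Mir186 (row 10497077) and Mir363, given above, had the lowest fold change of this comparison, and Mir186 the smaller p. Mir186 lies at chr3:157544279-157544349 on the plus strand, inside the splicing-factor gene Zranb2, and read 4.0 and 3.8 untreated, 2.8 and 3.2 with siGFP, and 2.7 and 3.0 with siLin28a. Both siRNA groups lie below both untreated arrays, with fold changes of -0.90 ± 0.19 for siGFP (limma p 0.00276, adjusted p 0.961) and -1.05 ± 0.19 for siLin28a (limma p 0.00125, adjusted p 0.535). Between the 2 siRNA groups it differed by -0.15 ± 0.19, and their arrays overlap. Zranb2 read 8.7 and 7.9, 7.9 and 8.1, and 7.5 and 7.6, a fold change of -0.30 ± 0.26 for siGFP and -0.75 ± 0.26 for siLin28a. The Zranb2 arrays of the siGFP group thus overlap the untreated ones, unlike those of Mir186.

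Mir677 and Mir1839 followed the same order. Mir677 read 6.6 and 6.4 untreated, 6.0 and 6.0 with siGFP, and 6.0 and 6.0 with siLin28a (-0.50 ± 0.12 in both comparisons with untreated cells; limma p 0.00607). It lies inside Atp5b, a subunit of the mitochondrial ATP synthase, which read 12.3 and 12.4, 12.4 and 12.5, and 12.4 and 12.3. Mir1839 read 4.4 and 4.5, 4.0 and 3.8, and 3.8 and 4.1 (-0.55 ± 0.15 for siGFP and -0.50 ± 0.15 for siLin28a). Mir383 and Mir670 were low in the siGFP group alone: Mir383 read 6.5 and 6.7, 6.0 and 6.3, and 6.5 and 6.4.

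On the higher side, Mir133a-2 read 2.1 and 2.3 untreated, 2.9 and 2.8 with siGFP, and 2.5 and 2.5 with siLin28a (0.65 ± 0.13 for siGFP; limma p 0.00189, adjusted p 0.961). Its 3 groups do not overlap, and siGFP is the highest. Mir30e read 3.7 and 3.5, 3.9 and 4.2, and 3.5 and 3.8 (0.45 ± 0.17), while Nfyc, which holds it, stood at 0.05. Mir28a, inside Lpp, read 2.6 and 2.8, 3.0 and 3.1, and 2.8 and 3.0 (0.35 ± 0.14), and Lpp stood at -0.10. Mir541 and Mir376a belong to the Dlk1-Dio3 region described next.

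Cells with siLin28a were also compared with untreated cells, a comparison that shares its arrays with each of the others. No microRNA row passed an adjusted p of 0.05 by limma (0% of named rows). At an unadjusted p under 0.05 there were 12, 5 higher and 7 lower (4.03%, against 6.44%), and 68 did not overlap, 40 higher and 28 lower (22.8%, against 23.7%). Mir186 was the 1 row past 2-fold, at 2.07-fold lower.

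The Dlk1-Dio3 region of chromosome 12, an imprinted domain whose maternally expressed transcripts Meg3 and Rian and a long microRNA array are used as a mark of fully potent mouse pluripotent cells, has 40 member rows. From untreated cells with siLin28a, 32 of the 40 lay higher, 6 lower and 2 at 0, with a median of 0.20, where 41.9% of named rows lay above 0 and 46.7% below. Of all 298 microRNA rows, these 40 included, 146 lay above 0 and 126 below. The arrays lay higher without overlap for 15 of the 40 rows and lower for 0, against 11.1% and 12.6% of named rows. Among all 298 microRNA rows these counts were 40 and 28. With siGFP the counts in the region were 28 higher, 6 lower and 6 at 0, with a median of 0.15, against 44.4% of named rows above 0. Of the 298 microRNA rows, 146 lay above 0 and 114 below in that comparison. Here 6 rows of the region lay higher without overlap and 0 lower, against 9.22% and 8.46% of named rows. Among the 298 microRNA rows 21 and 22 did. Between siLin28a and siGFP the median was 0.025, with 20 higher, 12 lower and 8 at 0. These rows come from 1 region and are not independent of each other.

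Untreated replicate 1 bears on this result. It deviated from the row means of the region by a median of -0.22, and the other 5 arrays lay between -0.07 and 0.13. Over all 298 microRNA rows it deviated by a median of -0.10 and untreated replicate 2 by 0.10. The low reading was thus not confined to the region. Without untreated replicate 1 the region's median of siLin28a over untreated was 0.10, and without untreated replicate 2 it was 0.30. For siGFP over untreated the medians were 0.05 and 0.275, and 0.025 without siGFP replicate 1. The direction held in each case, while the size moved by 1.5 times or more. The median between siLin28a and siGFP was -0.025 when the arrays were shifted to the same median.

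Within the region the 30 rows from Mir379 onward, which lie in the downstream array, included 26 that were higher with siLin28a than untreated and 13 without overlap. The 10 rows ahead of Mir379 included 6 that were higher and 2 without overlap. The medians were 0.20 and 0.05. With siGFP the 2 parts were closer, with medians over untreated of 0.15 and 0.125. Of the 30 rows 22 were higher with siGFP and 4 without overlap, and of the 10 rows 6 were higher and 2 without overlap. Mir377 (row 10398432), at chr12:109740510-109740577 on the plus strand, read 5.5 and 5.4 untreated, 6.4 and 5.5 with siGFP, and 6.4 and 6.1 with siLin28a. Its fold change of 0.80 ± 0.29 was the highest of the comparison (limma p 0.0327, adjusted p 0.705), and siGFP replicate 2 lies with the untreated arrays. Mir541 read 3.8 and 3.7, 4.3 and 4.1, and 4.1 and 4.3, with both siRNA groups above both untreated arrays by the same 0.45 ± 0.14. Mir136 read 2.1 and 2.8, 2.9 and 2.6, and 3.2 and 3.1 (0.70 ± 0.24 for siLin28a). Mir376a read 1.6 and 1.8, 2.3 and 2.0, and 2.0 and 2.1 (0.45 ± 0.15 for siGFP). Of the long transcripts, Meg3 read 9.0 and 9.4, 9.1 and 9.3, and 9.2 and 9.5. Its fold change was 0.15 ± 0.19 for siLin28a and 0 ± 0.19 for siGFP. Rian read 7.1 and 6.8, 7.2 and 7.2, and 6.6 and 6.9, a fold change of -0.20 ± 0.16 for siLin28a and 0.25 ± 0.16 for siGFP.

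**Figure D5:**
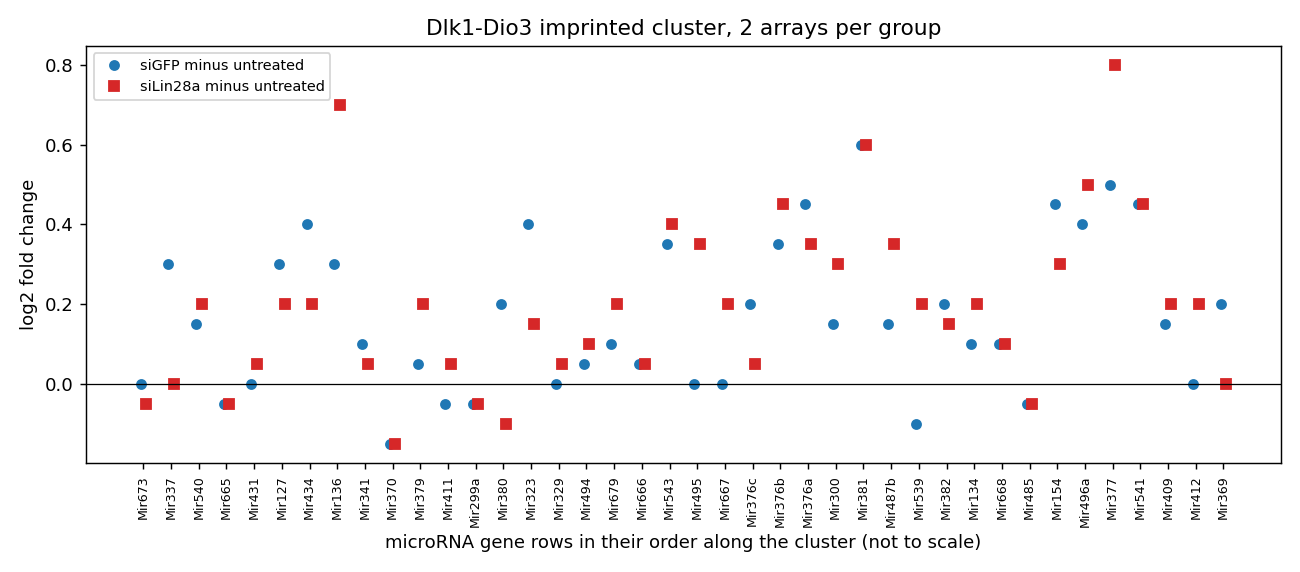
Log2 fold change (vertical axis) over untreated cells of the 40 microRNA rows of the Dlk1-Dio3 region, in their order along the chromosome and not to scale, for siGFP (circles) and siLin28a (squares). Both series share the untreated arrays; 28 circles and 32 squares lie above 0, with medians of 0.15 and 0.20.

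The miR-15 and miR-16 genes, known for restraining the cell cycle, share the seed AGCAGCA and stood on the other side, with a median of -0.475 over 6 rows with siLin28a from untreated cells (4 lower, 2 higher). Mir15a, inside Dleu2, read 5.6 and 6.0 untreated, 5.6 and 5.1 with siGFP, and 5.1 and 5.2 with siLin28a, a fold change of -0.65 ± 0.21 (limma p 0.0219, adjusted p 0.695). Untreated replicate 2 was the high array for this family, with a median deviation of 0.475 from the row means against -0.225 to 0.175 on the others. Over all 298 microRNA rows that array deviated by a median of 0.10. Without that array the median was -0.125, and the median of siGFP from untreated cells went from -0.275 to 0.10. The 2 rows that lay higher, Mir195a and Mir497, form a separate gene cluster; this was seen after the values.

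The genes that make and degrade microRNAs were read from a list of 32 genes with 36 rows. None passed an adjusted p of 0.05 by limma in any comparison (0% of named rows in each), and at an unadjusted p under 0.05 there was 1 row for siLin28a against siGFP, 1 for siGFP against untreated and 5 for siLin28a against untreated, where 4.05%, 3.52% and 6.44% of named rows lay under it. For siLin28a against siGFP, 8 rows lay higher, 23 lower and 5 at 0, with a median of -0.05, where 38.3% of named rows lay above 0 and 49.6% below; Lin28a is on this list. Of the transferases, Tut4 read 7.1 and 6.5 untreated, 7.4 and 7.1 with siGFP, and 6.8 and 6.9 with siLin28a, a fold change of -0.40 from siGFP and 0.45 for siGFP from untreated. Tut7 read 6.8 and 6.5, 7.1 and 6.8, and 6.8 and 6.9. Dis3l2 read 7.4 and 7.3, 7.5 and 7.1, and 7.5 and 7.4, so its groups overlap.

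Of the processing enzymes, Drosha read 9.7 and 9.5 untreated, 9.8 and 9.7 with siGFP, and 9.7 and 9.7 with siLin28a. Dicer1 read 9.4 and 9.4, 9.6 and 9.3, and 9.2 and 9.3, and the exporter Xpo5 read 9.0 and 9.1, 9.1 and 9.0, and 9.0 and 9.1. Drosha and Xpo5 thus differed by 0.05 or less between siLin28a and siGFP. Tarbp2, a partner of Dicer1, has 2 rows with fold changes of -0.40 and -0.20 from siGFP. Tnrc6c, a silencing partner of the Argonautes, read 7.6 and 7.7, 7.6 and 7.3, and 7.2 and 7.0, a fold change of -0.55 for siLin28a from untreated. The cytoplasmic poly(A) polymerase Tent2 has 2 rows with -0.40 and -0.25 for siGFP from untreated. Dicer1, Drosha, Dis3l2, Tut7 and Xpo5 were chosen for their roles and not by size.

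MicroRNA rows were also set beside their host genes. By RefSeq gene spans, 131 of the 271 member genes with a strand lie within another gene on the same strand, and 96 of them have a host with a row of its own, giving 97 pairs with 76 hosts. For siLin28a against siGFP, 35 pairs had the same sign, 40 the opposite sign and 22 a value at 0. The counts were 41, 39 and 17 for siGFP against untreated, and 40, 46 and 11 for siLin28a against untreated. A microRNA row and its host thus shared a sign about as often as not in each comparison. Several pairs share 1 host, such as the 3 microRNAs of Mcm7, and most fold changes on both sides are within the spread of the arrays.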

How the data were processed

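Total RNA samples of A3-1 cells were hybridised to 6 arrays, in 3 groups of 2 taken from the labels. The deposited values are log2 expression per probe set; the authors made them with Affymetrix Expression Console and RMA, per the submitters' processing notes, which corrects background, quantile normalizes and summarises probes. Tool versions are not stated in the labels or notes. With 2 arrays per group, precision is limited by their number.

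The values were used as deposited. GEO's platform annotation named 23410 of 35556 rows, 21797 of them with 1 symbol, 1613 with several and 12146 with none; 61 rows that mix a microRNA gene with other symbols and 7 host-gene rows were left out. All 296 member genes were matched to the RefSeq GRCm38.p6 gene table, and 0 symbols changed. The table of RefSeq sequences gave hairpins and mature strands.

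Rows were tested in R 4.3.3 with limma 3.58.1 (lmFit with contrasts, then eBayes without trend), two-sided, on all 6 arrays with 1 shared spread, adjusted by Benjamini-Hochberg over the 23410 named rows, and tested on simulated data. An SE is that of the fit, over 2 arrays per group. Gene groups were described by counts and medians, with no list test. The members and lists were chosen with earlier results of these data known. The Mir290 to Mir295 cluster was also on the list of families to be named but had no member row. Rows named in the text are those of the let-7, miR-302 and miR-17 to miR-92 families, the 5 higher and 5 lower non-overlapping rows with the smallest p in each comparison, the brightest 5, Lin28a, Lin28b, the 2 genes of the biogenesis list with the largest change in each comparison, and host genes of these rows; others are marked or named by role. Alternatives covered scaling, variance prior, a filter at a mean of 6, all rows tested, 2 groups alone, a replicate block and each array left out. The replicate numbers were not used as pairs. No 2 arrays held identical values.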

Additional observations from a re-analysis of the deposited data

How the results depend on the processing

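No microRNA row passed an adjusted p of 0.05 by limma under any alternative run in the 3 comparisons, the replicate block and each array left out included. At an unadjusted p under 0.05 the number of microRNA rows ran from 1 to 18 for siLin28a against siGFP (7 as reported), from 2 to 25 for siGFP against untreated (12) and from 2 to 28 for siLin28a against untreated (12); with rows of a mean of at least 6 alone, fewer rows were tested. As shares these are 2.01% to 6.04%, 2.68% to 8.39% and 3.02% to 9.40% of microRNA rows, against 2.92% to 6.25%, 2.48% to 6.95% and 4.93% to 9.12% of named rows. With the replicate block there were 17, 18 and 18 (5.70%, 6.04% and 6.04%, against 5.77%, 5.36% and 8.26% of named rows), the median of all microRNA rows was 0 in each comparison, and 0 of 127 named fold changes turned sign. Deviations of same-numbered arrays correlated at 0.154, -0.0352 and 0.357 over all named rows (siGFP with untreated, siLin28a with untreated, siGFP with siLin28a) and at 0.253, 0.343 and 0.433 over microRNA rows, and the labels do not say that the numbers pair the samples. Of the 127 named fold changes, 36 turned sign without at least 1 array and 3 under at least 1 of the 3 scalings, which moved the median of all named rows by 0.05 at most.

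The median of microRNA rows for siLin28a against untreated was 0.15 without untreated replicate 2 and ran from -0.10 to 0.15 over the arrays left out. That of the miR-15 and miR-16 rows ran from -0.70 to -0.125 in this comparison and from -0.50 to 0.10 for siGFP against untreated, with the last value of each without untreated replicate 2. A hand-written list of hosts gave 52 pairs in place of 97. The alternatives for the let-7, miR-302, miR-15 and Dlk1-Dio3 groups were chosen after seeing the data. The limits are 2 arrays per group, rows mostly near the brightness of receptor rows, values in steps of 0.1, and probes that do not report mature microRNA. The cause of these shifts was not tested.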

Other observations

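The 6 rows of an X-linked microRNA cluster known from testis were among the dimmest, with means from 1.17 to 2.12, and had median fold changes of -0.025 for siLin28a against siGFP, 0.025 for siGFP against untreated and -0.05 for siLin28a against untreated. Dlk1, the protein-coding gene at the head of the Dlk1-Dio3 region and expressed from the other parental copy, read 6.8 and 6.9 untreated, 6.8 and 6.8 with siGFP, and 7.2 and 7.0 with siLin28a, so both siLin28a arrays lie above the other 4 (log2 fold change 0.30 ± 0.13 from siGFP, adjusted p 0.953 by limma). Mir713, the 1 gene with 3 rows, had fold changes of 0, -0.35 and -0.05 from siGFP in those rows.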
